A study of Homo sapiens with 2 samples.

Results

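The histone gene cluster on the short arm of chromosome 6 was examined in the FLAG-SMARCA4 ChIP-seq data of TOV21G cells and an EZH2 inhibitor-resistant (EIR) clone. Its members were the protein-coding histone genes of an interval of 2.3 Mb, chosen by symbol and position. In GRCh37, the coordinates of hg19, they run from *H2AC1*, which starts at 25723625, to *H2BC17*, which ends at 27861669. There were 52 such genes among 20176 protein-coding genes, namely 6 H1, 12 H2A, 13 H2B, 10 H3 and 11 H4 genes. Of the 12896 regions in the lists, 1 came within 1 kb of a transcription starting site (TSS) of these genes, measured from its nearest edge.

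The first library was made from the parental line TOV21G, an ovarian clear cell carcinoma line with mutated *ARID1A*, and the second from resistant clone 3, which was selected from TOV21G cells in the EZH2 inhibitor GSK126 raised from 5 through 10 and 15 to 20 μM. Both lines carried a FLAG tag at the endogenous *SMARCA4* locus (the labels call the protein BRG1) and were grown from single colonies, so that each condition is 1 library of 1 line. The lists hold the regions in which the libraries differed, 10792 with more tags (aligned reads) in parental cells and 2104 with more in the EIR clone. The parental library had about 25640000 tags and the EIR library about 34979000, as worked out from the normalized values, and EIR values were scaled by 0.733 to the parental total. A gene without a region may have been bound alike in both libraries, may not have been bound, or may have differed by less than the threshold, and its tags were not analysed here. With 1 library per condition there is no spread between replicates, so the intervals below cover counting error only and no test of the conditions was possible.

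Replication-dependent histone genes are small genes, mostly without introns, that are transcribed in S phase to supply the core histones H2A, H2B, H3 and H4 and the linker histone H1 for newly made DNA. Their mRNAs end in a stem-loop bound by SLBP and not in a poly(A) tail, and transcription at the cluster is organised by NPAT in the histone locus body. Many H2A and H2B genes lie head to head and share a promoter. SMARCA4 and its paralog SMARCA2 are alternative ATPases of SWI/SNF complexes, which slide and evict nucleosomes, the particles built from the core histones.

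The sequences below, from GRCh37, belong to the gene with a region and to the divergent pair nearest to a region. The first is the part of its region that is *H4C1* coding sequence (chr6:26021936-26022215, plus strand), and the second the stretch between the nearest TSSs of *H2BC4* and *H2AC6* (chr6:26124155-26124372, plus strand), chosen after the values were seen. Capitals in the second mark matches, on either strand, to the promoter motifs searched.
H4C1 coding part of the region: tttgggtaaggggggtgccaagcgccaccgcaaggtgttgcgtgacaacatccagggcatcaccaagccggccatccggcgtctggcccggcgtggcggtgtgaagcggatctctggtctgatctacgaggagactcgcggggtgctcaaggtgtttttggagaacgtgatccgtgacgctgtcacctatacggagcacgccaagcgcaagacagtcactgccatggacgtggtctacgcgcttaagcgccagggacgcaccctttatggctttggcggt
H2BC4 to H2AC6: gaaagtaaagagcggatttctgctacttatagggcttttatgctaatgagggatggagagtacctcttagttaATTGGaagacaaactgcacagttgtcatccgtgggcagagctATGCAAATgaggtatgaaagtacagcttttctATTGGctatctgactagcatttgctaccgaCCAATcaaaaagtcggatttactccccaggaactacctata
Between *H2BC4* and *H2AC6* the capitals are 3 CCAAT boxes and the octamer ATTTGCAT, which reads ATGCAAAT on this strand and is the motif that POU2F1 (OCT1) recognises in H2B promoters. The stretch ends at the *H2AC6* TSS nearest to *H2BC4* and not at the canonical one. Both genes also have TATAAA within 250 bases before to 50 after their canonical TSS, but no whole match lies inside the stretch printed. The windows of these genes overlap, so the same site can count for both.

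SMARCA4 tags were listed as different between parental and EIR libraries at *H4C1* and at none of the other 51 histone genes of the cluster. The region at *H4C1*, which encodes histone H4, had 36 parental tags against 23 EIR tags (16.9 once scaled to the parental total) and was higher in parental cells. The fold was 2.14 (95% Clopper-Pearson confidence interval 1.23 to 3.77), with a HOMER *P* value of 3.40e-05 that compares these libraries and not the conditions. That Poisson value takes the scaled EIR tags as a fixed mean and leaves out their own counting error. Calling picked regions that differ, so the fold and its interval describe a selected region only. *H4C1* was 1 of 52 genes (1.92%, 95% Wilson confidence interval 0.340 to 10.1%), while in 24.6% of all protein-coding genes a TSS had a region of either list this close. In the parental-higher direction alone the share of all protein-coding genes was 23.2%. No histone gene of the cluster had an EIR-higher region (0 of 52), and 1.96% of protein-coding genes had one.

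**Figure D1:**
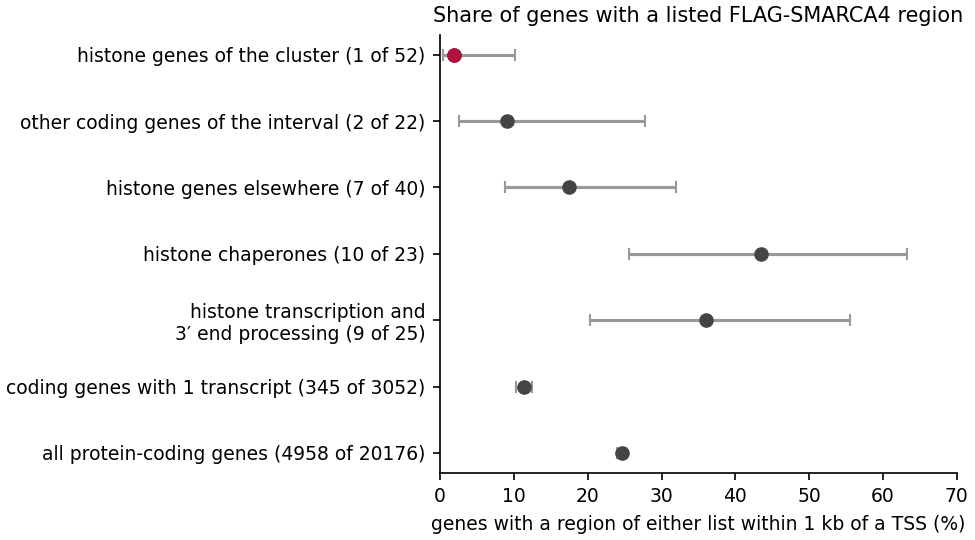
Share of genes whose TSS has a region from either list within 1 kb (x axis, percent) for 7 gene sets (rows, with counts), where points are shares and bars are 95% Wilson confidence intervals that treat genes as independent draws. The 52 histone genes of the cluster (top row) stand at 1.92% and all protein-coding genes (bottom row) at 24.6%.

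By histone class, a region lay within 1 kb of 0 of 6 H1, 0 of 12 H2A, 0 of 13 H2B, 0 of 10 H3 and 1 of 11 H4 genes. Tags of both libraries can therefore be given for class H4 only, as the 36 and 23 tags at *H4C1*. The upper limits of the Wilson intervals for the classes without a region lay between 22.8% for H2B and 39.0% for H1, so these counts do not separate the classes from one another. The median distance from a TSS to the nearest region was 24575 bp for H1, 258454 bp for H2A, 53940 bp for H2B, 27152 bp for H3 and 29631 bp for H4 genes. Over all 52 genes it was 43.0 kb, close to the 42.4 kb of all protein-coding genes, while the lower quartile was 17.7 kb against 1.15 kb. The lower quartiles thus lay far apart while the medians did not.

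**Figure D2:**
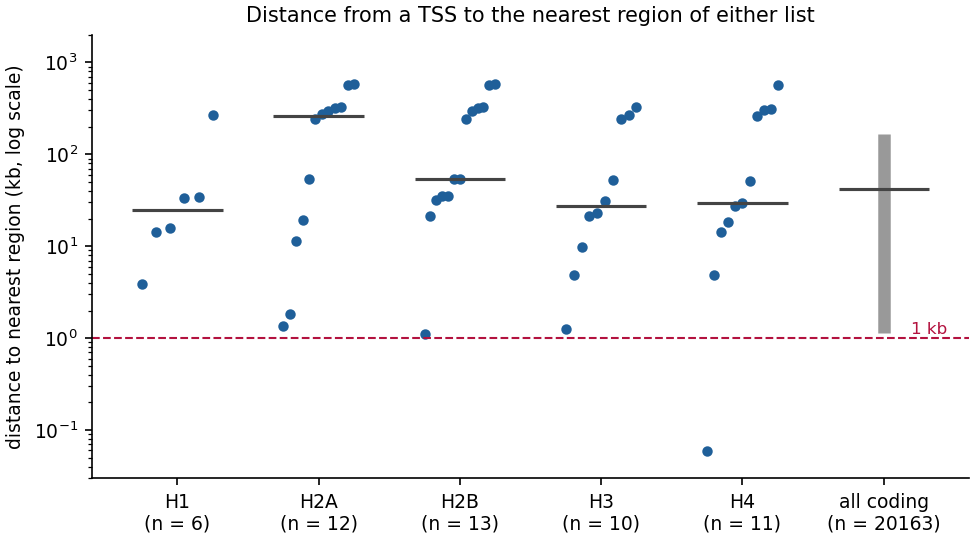
Distance in kb (log scale) from the nearest TSS of each histone gene of the cluster to the nearest edge of a region of either list, by class, where points are genes, short lines are medians and the dashed line is 1 kb. The last column gives the median and the interquartile range (bar) of the protein-coding genes on chromosomes with a region. *H4C1*, at 59 bp, is the only histone gene below the dashed line.

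The region at *H4C1* lay over the body of the gene and not over its promoter. *H4C1* is on the plus strand of chromosome 6 from 26021877 to 26022278, a single exon with coding sequence from 26021907 to 26022215. The region ran from 26021936 to 26022566, that is from 59 bp to 689 bp downstream of the TSS, and covered 280 of 309 coding bases (90.6%), the 3′ UTR and 288 bp beyond the gene. Over its 630 bp it held 57.1 parental tags per kb and 26.8 scaled EIR tags per kb. The neighbouring *H3C1*, an H3 gene whose TSS is 1257 bp from the region, lay outside the window.

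The *H4C1* region stood near the limit of the list. At 36 parental tags, 24 EIR tags (17.6 scaled tags, a fold of 2.05) were the most for which the Poisson *P* value did not exceed 1e-04, and the region had 23. Among the 4668 parental-higher regions within 1 kb of a coding TSS, whose median was 48 tags and a fold of 2.54 (interquartile range 2.15 to 3.07), 33.3% had fewer tags and 23.9% a smaller fold, and 13.0% had a larger *P* value. Of the 721 with 31 to 41 tags, 18.6% had a smaller fold, and their median fold was 2.43. When the scaling of the EIR library was raised 1.5 times, the fold at *H4C1* was 1.42 (95% confidence interval 0.821 to 2.52) and the Poisson *P* value 2.59e-02, past the limit.

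**Figure D3:**
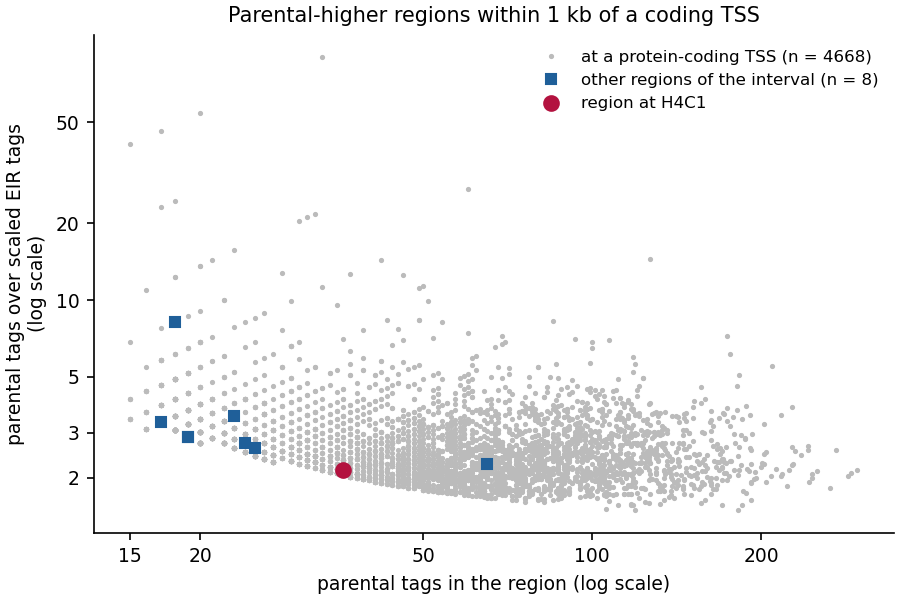
Parental tags (x axis, log scale) and fold of parental over scaled EIR tags (y axis, log scale) of the 4668 parental-higher regions within 1 kb of a coding TSS (grey), the region at *H4C1* (red) and the other 8 regions of the interval (blue, a pair of which coincide at 19 tags). The *H4C1* region, at 36 tags and a fold of 2.14, lies just above the lower edge that the *P* value limit of the list makes.

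A pair of further regions lay just outside the window. The region from 26122517 to 26123017 was 1115 bp from the nearest TSS of *H2BC4* and 1356 bp from that of *H2AC6*, with 19 tags in parental cells and 9 tags (6.6 scaled) in the EIR clone, a fold of 2.88 (95% confidence interval 1.24 to 7.23). It lay 678 bp past the 3′ end of the canonical *H2BC4* transcript, in an intron of the longer transcripts of that gene. The region from 26218971 to 26219605 was 1822 bp from the TSS of *H2AC8*, past the 3′ end of this H2A gene, with 23 tags against 9 tags (6.6 scaled), a fold of 3.49 (1.55 to 8.56). It covered the H3 pseudogene *H3C5P*, which the rule for members leaves out. Both regions were higher in parental cells, in the same direction as *H4C1*. Within 5 kb, 8 of 52 histone genes (15.4%) had one of these 3 regions, against 29.2% of all protein-coding genes with a region within that distance. For protein-coding genes with 1 annotated transcript the share within 5 kb was 14.5%. The 8 genes were *H4C1*, *H2BC4*, *H3C1*, *H2AC6*, *H2AC8*, *H1-1*, *H3C6* and *HIST1H4B*, and they shared the 3 regions.

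Among the histone genes there were 10 divergent pairs, with TSSs of opposite strands at most 1 kb apart head to head, formed by 19 genes. In 8 pairs an H2A gene faced an H2B gene, with 170 to 251 bp between the TSSs (median 242 bp), and in 2 an H3 gene faced an H2B gene, over 319 and 979 bp. The pair at 319 bp, *H3C12* and *H2BC17*, rests on a TSS of *H3C12* that is not its canonical one. *H2BC17* is also paired with *H2AC17*. No pair had a region within 1 kb of a TSS of either gene (0 of 10), against 556 of 1712 head-to-head pairs of all protein-coding genes (32.5%), so that no tags of either library are listed for a shared promoter. The nearest was *H2BC4* and *H2AC6*, with the 19 and 9 tags given above at 1115 bp. It was followed by *H3C7* and *H2BC9* at 31258 bp and *H2AC1* and *H2BC1* at 53723 bp. The other 7 pairs were 244280 to 575456 bp from a region of either list.

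Position along the cluster went with these distances. The interval of 2.3 Mb held 9 regions, each of them higher in parental cells, and 0 EIR-higher regions, while chromosome 6 as a whole held 530 and 73. The 31 histone genes from *H2AC1* to *H4C8* had a median of 21.4 kb to the nearest region. The last region of the interval ended at 26539178 and the next on the chromosome began at 28105483. The stretch of 1.57 Mb between them held the other 21 histone genes, from *H2BC11* to *H2BC17*, and no region. The 9 regions together had 246 parental and 124 EIR tags (90.9 scaled), a fold of 2.71 (95% confidence interval 2.17 to 3.39), a description only, since calling picked regions that differ. The most tags, 65 in parental cells against 39 (28.6 scaled), were in a region from 26336606 to 26338000, 50740 bp from the nearest histone TSS and 27387 bp from that of *BTN3A2*. The largest fold, 8.19 (2.39 to 43.4), came from 18 against 3 tags at 26487772 to 26488272, 12259 bp from that of *BTN1A1*, and rests on those 3 tags.

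**Figure D4:**
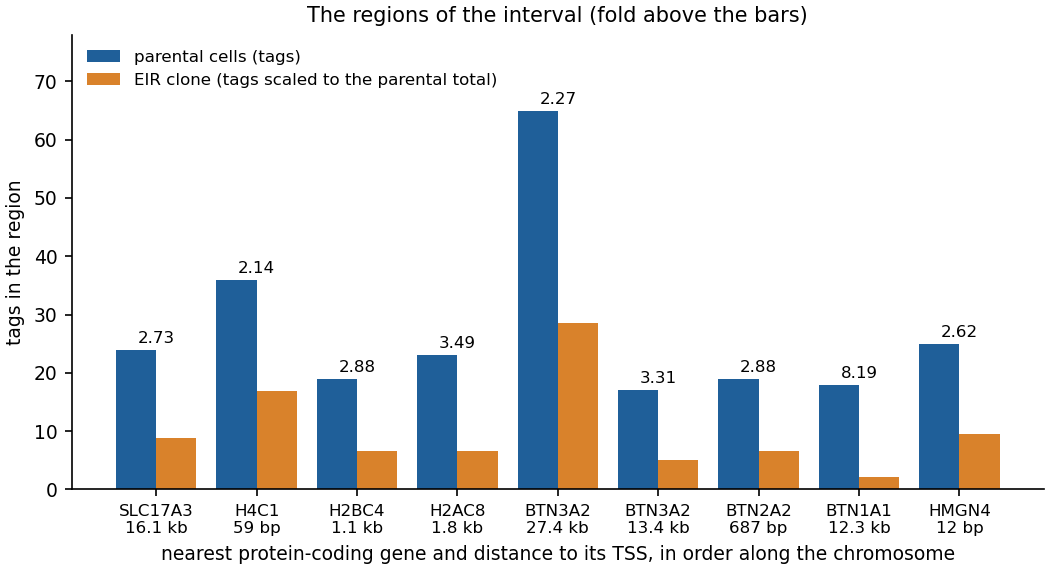
Tags in parental cells (blue) and in the EIR clone, scaled to the parental total (orange), in the 9 regions of the interval, in order along the chromosome, with the nearest protein-coding gene and its distance under each pair of bars and the fold above it. The region at *H4C1* holds 36 against 16.9, and the region with the most tags 65 against 28.6.

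Other protein-coding genes of the same interval were counted in the same way. Of 22 such genes, among them butyrophilin, phosphate transporter and zinc finger genes, 2 (9.09%, Wilson interval 2.53 to 27.8%) had a region within 1 kb, both higher in parental cells. These were *HMGN4*, a nucleosome-binding HMGN protein, with 25 against 13 tags (9.5 scaled, fold 2.62, 1.29 to 5.58), and *BTN2A2*, with 19 against 9 tags (6.6 scaled, fold 2.88, 1.24 to 7.23). The intervals of the shares of these 22 genes and of the 52 histone genes overlap.

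The base composition around the TSSs moved with these counts. Within 500 bp of the canonical TSS, the GC content of the 52 histone genes was 43.9 to 56.6% with a median of 50%, against a median of 61.2% over all protein-coding genes and of 68.9% over those with a region. The share of coding genes with a region rose from 5.19% below 45% GC to 64.2% at 70% GC and above. Of the histone genes, 46 lay between 45 and 55% GC, where 7.04% (45 to 50%) and 8.24% (50 to 55%) of coding genes had a region. Among the 1534 other coding genes with a GC content within the interquartile range of the histone genes (48.6 to 53.0%), 7.30% had a region. That share lies inside the Wilson interval of the 52 histone genes (0.340 to 10.1%). Of the 26 histone genes within the same GC range, 1 (3.85%), again *H4C1*, had a region, and no interval was computed for this share. The ratio of observed to expected CpG dinucleotides of the histone genes had a median of 0.847 against 0.839 over coding genes with a region, and 35.6% of coding genes with a ratio in the interquartile range of the histone genes had one. Of the 141 coding genes alike in both measures, 17 (12.1%) had a region. That share is above the upper limit of the Wilson interval of the histone genes but carries counting error of its own. No interval was computed for it, and histone genes alike in both measures were not counted separately. Whether the shares differ was not tested. GC content was read at the canonical TSS, while a region could lie at any TSS of a gene. The part of GC content in the count of histone genes with a region was not tested.

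**Figure D5:**
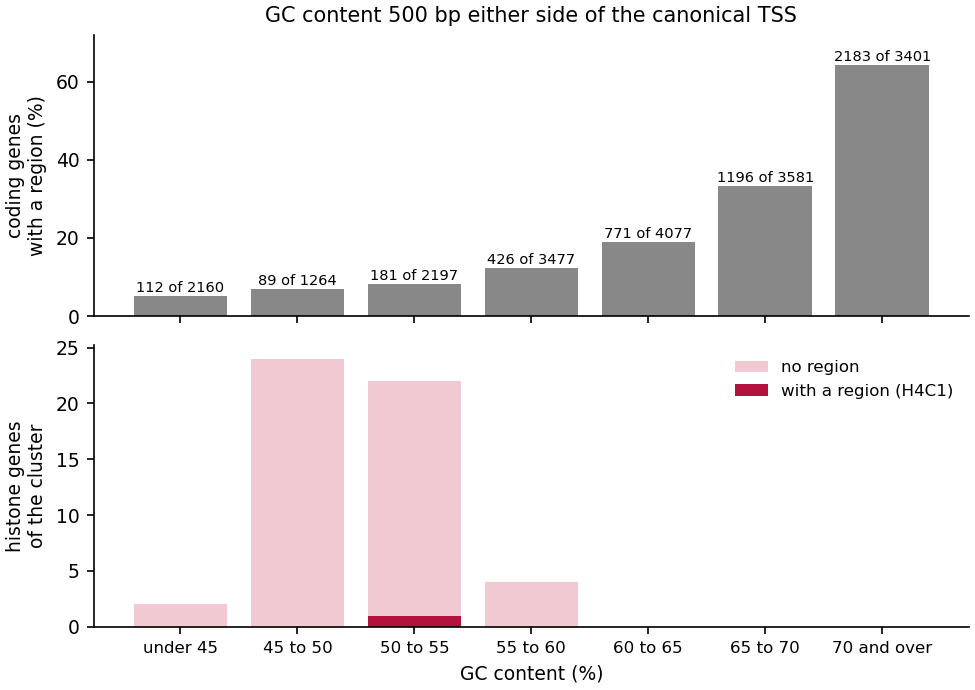
Percent of protein-coding genes whose TSS has a region from either list within 1 kb (upper panel, with counts) and number of histone genes of the cluster (lower panel, the gene with a region in red) by GC content within 500 bp of the canonical TSS (x axis, percent). The share of coding genes rises from 5.19 to 64.2%, and all 52 histone genes lie below 60% GC.

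Gene structure and copies of sequence were compared in the same way. Of the histone genes, 41 have 1 annotated transcript, and 1 of these (2.44%) had a region, against 11.3% of the 3052 coding genes with 1 transcript (10.7% parental-higher and 0.655% EIR-higher). Of the 75-base sequences within 1 kb of the canonical TSS, 75 bases being the read length, a median of 100% occurred once in the genome for the histone genes (range 82.1 to 100%). At least 90% occurred once for 46 of the 52 histone genes, of which 1 (2.17%) had a region, against 20.9% of 973 other coding genes of chromosome 6 with such a share. The lowest value, 82.1%, was that of *H4C11* and *H4C12*. Every 75-base sequence in the *H4C1* region occurred once. Only exact matches were counted, and how reads with several alignments were treated is not given in the sources used here. The shares of 2.44% and 2.17% rest on *H4C1* alone, and no interval was computed for them. Whether they differ from the shares beside them was not tested.

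The promoters of the histone genes shared motifs by class (250 bases before to 50 after the canonical TSS, both strands), a description of sequence and not of binding. TATAAA was found in 36 of 52 (69.2%), against 9.80% of all protein-coding promoters of the same length. CCAAT was found in every H1, H2A, H2B and H3 promoter but in 4 of 11 H4 promoters (36.4%), against 35.9% of all. The octamer was found in 10 of 12 H2A and 10 of 13 H2B promoters and in none of the others, against 1.58% of all, and AAACACA, the H1 box, in 6 of 6 H1 promoters and in none of the others, against 4.21%. H2A and H2B genes that lie head to head share much of the sequence searched, so the same octamer, CCAAT or TATAAA site can count for both. GGTCCG, from site II of H4 promoters, was found in 9 of 11 H4 promoters against 14.6% of all. Of the E2F motifs, TTTCCCGC was found in 2 of 52 promoters, both of H4 genes (2.22% of all), and TTTGGCGC in none of the 52 (0.852% of all).

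The GC box GGGCGG, bound by SP1, was found in 9 of 52 histone promoters (17.3%) against 60.9% of all. Of coding genes with a region 82.4% had a GC box, and 4.34% had TATAAA. Coding genes whose promoter held GGGCGG had a region in 33.3% of cases, those without it in 11.1%. Motifs were read at the canonical TSS but regions at any TSS of a gene, so they may lie at different promoters. How far this motif goes with GC content was not tested. At the other end of the genes, all 52 members had a match to the histone stem-loop consensus within 100 bases of the canonical 3′ end, against 18 of 20124 other coding genes (0.0894%), of which 14 are histone genes of other loci. The genes thus carry the signals of replication-dependent histone genes, which checks the choice of members.

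Histone genes outside the cluster had a region within 1 kb in 7 of 40 cases (17.5%, Wilson interval 8.75 to 31.95%), each higher in parental cells. The 24.6% of all protein-coding genes, or 23.2% in the parental-higher direction, lies inside this interval. Split by symbol after the values were seen, these were 1 of 14 genes with symbols of the replication-dependent kind (H2AC, H2BC, H3C or H4C), namely *H4C16* on chromosome 12, and 6 of 26 others. Among the 6 were *H2AZ1*, *H3-3A*, *MACROH2A1* and *MACROH2A2*, which encode replacement histones that are not made in S phase alone. The most tags were at *MACROH2A2*, with 157 in parental cells against 93 tags (68.2 scaled) in the EIR clone, a fold of 2.30 (95% confidence interval 1.77 to 3.01). At *H4C16* there were 17 against 7 tags (5.1 scaled), a fold of 3.31 (1.31 to 9.45). The 7 folds ranged from 1.94 to 3.31, and that of *H4C1* lay within this range.

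Genes that act on histone mRNAs and histone proteins were set beside the histone genes themselves. Of 25 genes of histone transcription and 3′ end processing, 9 (36.0%, Wilson interval 20.2 to 55.5%) had a region within 1 kb, and of 23 histone chaperones 10 (43.5%, 25.6 to 63.2%), each higher in parental cells. The share of all protein-coding genes was 24.6%, inside the first interval and just below the second. With a window of 500 bp the chaperones had 9 of 23 (39.1%, 22.2 to 59.2%), an interval that includes the 22.6% of all protein-coding genes at that window, and genes are not replicates. In the first list the most tags were at *TENT4A*, a non-canonical poly(A) polymerase, with 227 against 82 tags (60.1 scaled), a fold of 3.78 (2.92 to 4.92). *SLBP*, whose protein binds the stem-loop of histone mRNAs, had 98 against 71 tags (52 scaled), a fold of 1.88 (1.37 to 2.59). *CCNE1*, the cyclin whose kinase phosphorylates NPAT, had 58 against 16 tags (11.7 scaled), a fold of 4.95 (2.80 to 9.22). *SLBP* and *CCNE1* were named after their values were seen. In the second list the most tags were at *NAP1L1*, a chaperone of H2A and H2B, with 77 against 59 tags (43.2 scaled), a fold of 1.78 (1.25 to 2.54). Folds ranged from 1.88 to 6.04 in the first list and from 1.78 to 4.91 in the second.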

How the data were processed

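FLAG-SMARCA4 ChIP-seq was available from 1 library of parental TOV21G cells and 1 of EIR clone 3. The authors aligned 75 bp single-end reads to hg19 with Bowtie 0.12.9, ran HOMER in histone style, in which either library served as control for its counterpart, and retained regions under an FDR of 5%. The deposited lists give a count of parental tags, without normalization, the EIR signal scaled to the parental total, a signal per 10000000 tags, the fold ratio of the libraries (0.5 tag where the control had none) and HOMER's Poisson p-value. Whole EIR tags were recovered from the scaled signal (step 0.733, all distinct values of at least 5 within 0.05 of a whole multiple).

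Regions were joined, by their nearest edge, to every transcript TSS of GENCODE release 44 mapped to GRCh37, the build of hg19. Of 55 coding histone genes that RefSeq places on chromosome 6 under these symbols, 52 matched this annotation, while *H2BC7*, *H2BC8* and *H4C6* were not analysed here. Fold intervals are exact Clopper-Pearson intervals, and shares have Wilson intervals. All regions at member genes were named, with the gene of most tags in each comparison list. Members and lists were chosen with earlier results of these data known. Sequences, motifs and 75-base matches were read from the GRCh37 genome. Some results are not reported here. Interval coverage and the join were tested on simulated data. Alternatives were other windows, distance measures, fold and p-value limits, scalings, merged regions and pair distances. The tools were pandas 2.3.3, numpy 2.4.6, numba 0.67.0, scipy 1.17.1, statsmodels 0.14.6 and matplotlib 3.10.9 under Python 3.11.15.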

Additional observations from a re-analysis of the deposited data

How the results depend on the processing

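The lists hold only regions that differed, so other settings could take regions away but not bring in uncalled ones. Of the 113 values recomputed under other settings, 94 kept their direction and stayed within counting error or 1.5 times of the value reported, and no fold reversed. This tally says little about robustness, because the *H4C1* region enters it under several names and counts of 0 are included. Folds were left out where that region was lost, and a count could not reverse. The fold of 1.42 with the higher scaling, whose interval includes 1, is among the 94. The single histone gene and its region, *H4C1*, remained with a window of 500 bp, distances to region centres, the 5′ end alone of each gene record, a fold of at least 2, merged regions and the EIR library scaled 1.5 times lower. They were lost (0 genes, 0 regions) at a fold of at least 4, at a HOMER *P* value of at most 1e-06 and with the EIR library scaled 1.5 times higher. With a window of 5 kb there were 8 histone genes, 3 regions and 1 divergent pair with a region. The 10 divergent pairs became 9 or 12 when TSSs could be 500 bp or 2 kb apart, with no region at any.

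Of the other coding genes of the interval, 1 had a region with a window of 500 bp or from the 5′ end only, and 0 at a fold of at least 4, at the stricter *P* value and with the higher scaling. Histone genes elsewhere with a region numbered 0 at a fold of at least 4 and 2 with the higher scaling, and those of the 2 histone expression lists together, 19 as reported, numbered 3 and 7, with 12 at the stricter *P* value. Added after the data were seen, the share of coding genes with a region was 7.30% at the GC content of the histone genes and 12.1% at their GC content and CpG ratio. Leaving out the *H4C1* region leaves no tags to sum, and no fold over divergent pairs could be given. No paired analysis was possible because each condition has 1 library. The depth behind a single region of 15 to 65 tags leaves wide intervals, as at *H4C1*.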
